A study of Mus musculus with 12 samples.

Results

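The 8 polyamine synthesis genes described here are Odc1, Amd1, Srm, Sms, Sat1, Oaz1, Oaz2 and Azin1, found by gene name among the 49315 genes of the count files. Each name matched a single row, each gene is annotated as protein coding, and all 8 passed the filter on low counts, as did 16844 genes in all. They were followed in 12 RNA-seq libraries of MIN6, a mouse insulinoma line used as a model of pancreatic β-cells, all of genotype WT and with 3 libraries in each of 4 groups. In the Rap group amino acids were returned to the cells together with Rap for 3 h, and the labels neither spell out Rap nor give its dose. In the re-added group amino acids were returned alone for 3 h. The starved group had spent 16 h without amino acids, and the control group is labelled as control with no withdrawal. How long the Rap and re-added cells had been starved beforehand, and what the amino acid-free medium held, are not in the labels. Nothing in the labels tells whether the libraries of a group are separate cultures, so the p-values below may reflect technical spread alone. The series' title names amino acid signalling through mTORC1, the kinase complex that couples amino acid supply to growth, and the groups ask how transcripts respond to withdrawal, return, and return in the presence of Rap.

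Polyamines are small positively charged molecules that bind nucleic acids and are needed for growth and translation. Ornithine decarboxylase (Odc1) makes putrescine, S-adenosylmethionine decarboxylase (Amd1) makes the aminopropyl donor, and spermidine synthase (Srm) and spermine synthase (Sms) add that group in turn. Spermidine/spermine N1-acetyltransferase (Sat1) starts their breakdown and export. Antizymes (Oaz1, Oaz2) bind Odc1 protein, send it to the proteasome and limit polyamine uptake, and the antizyme inhibitor (Azin1), an Odc1-like protein without decarboxylase activity, binds antizyme and releases Odc1. In β-cells polyamines are found in insulin secretory granules, and spermidine is the substrate for hypusine, the modified residue of the translation factor eIF5A. Much of this pathway is controlled through translation and protein decay, which transcript counts do not measure.

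The antizyme transcripts carry the feature through which polyamines act on their own synthesis, and it is shown as the site of that feedback, which transcript counts do not read. Ribosomes reach the end of a first short frame at a TGA stop and must skip a single base to make full-length antizyme. The annotation (GENCODE, GRCm38) keeps the T in some transcripts and leaves it out in others. The T-left-out window was found in 3 of 6 protein-coding Oaz1 transcripts and in 2 of 4 protein-coding Oaz2 transcripts. Capitals mark TCC with the stop that follows, or the letters left when the T is omitted.
Oaz1, T kept: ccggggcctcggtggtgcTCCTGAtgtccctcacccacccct
Oaz1, T left out: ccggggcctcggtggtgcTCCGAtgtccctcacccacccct
Oaz2, T left out: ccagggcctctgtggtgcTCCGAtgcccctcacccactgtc

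Amd1 carries a short reading frame upstream of its coding sequence, known in mammals to slow Amd1 translation when polyamines are plentiful. It begins at base 14 after the RefSeq transcription start and runs for 6 codons, with start and stop in capitals.
Amd1, upstream frame: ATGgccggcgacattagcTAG

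Promoter windows of 300 bases, from 250 bases before the transcription start to 50 after it, were taken from RefSeq on build GRCm38.p6, where 6 of the 8 members matched with 7 windows and Srm and Azin1 did not. The windows of Odc1, Amd1 and Sat1 are shown, since they stand for members that rose (Odc1, Amd1) or fell (Sat1) on re-addition. Capitals mark the GC box, GGGCGG or its reverse complement CCGCCC.
Odc1, chr12:17544623-17544922, plus strand: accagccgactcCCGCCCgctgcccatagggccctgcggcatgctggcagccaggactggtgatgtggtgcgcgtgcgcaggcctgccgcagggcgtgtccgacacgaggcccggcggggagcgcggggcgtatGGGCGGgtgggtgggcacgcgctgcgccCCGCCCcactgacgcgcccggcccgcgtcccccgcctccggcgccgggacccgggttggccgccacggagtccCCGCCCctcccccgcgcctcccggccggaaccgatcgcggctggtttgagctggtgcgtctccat
Amd1, chr10:40302139-40302438, minus strand: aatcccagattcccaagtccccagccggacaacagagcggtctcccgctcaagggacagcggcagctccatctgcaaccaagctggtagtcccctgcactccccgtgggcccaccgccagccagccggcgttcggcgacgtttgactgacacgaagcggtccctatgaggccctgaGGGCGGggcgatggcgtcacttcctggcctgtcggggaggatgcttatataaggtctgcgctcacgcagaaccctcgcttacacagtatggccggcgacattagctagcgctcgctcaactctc
Sat1, chrX:155216400-155216699, minus strand: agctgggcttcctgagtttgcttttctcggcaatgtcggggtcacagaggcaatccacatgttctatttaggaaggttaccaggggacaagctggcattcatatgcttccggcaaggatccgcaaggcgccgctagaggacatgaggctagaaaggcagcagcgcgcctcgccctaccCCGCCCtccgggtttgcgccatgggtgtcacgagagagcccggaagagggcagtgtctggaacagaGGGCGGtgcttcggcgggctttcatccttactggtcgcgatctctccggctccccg
The GC box was present on either strand in 5 of the 7 member windows, against 35.7% of 32851 mouse windows of the same length. The Odc1 window held 4, at bases -238, -116, -88 and -15 from the start. The E-box CACGTG, bound by MYC-family proteins, occurred in an upstream Sms window alone among the 7, against 7.15% of all windows. Sequence beyond the windows was not searched, so its absence from a window does not mean that the gene lacks an E-box. The TATA box TATAAA occurred in Oaz1 alone, against 13.6%. Its first base was at -3 from the start, so the match ran across the start itself. Only these exact letters and their reverse complement were searched. Members without them, Amd1 among these, may therefore still carry another form of this box. The letters TGACGTCA (1.79% of windows) and TGATGNAA (3.97%), searched on both strands, were in no member window, which says nothing about the factors that read them.

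The libraries held 18555958 to 25631056 counted reads, and the members between 348 reads (Sms) and 21858 reads (Oaz1) in a library. β-Cell markers summed to 52615 to 56995 CPM (reads scaled by library size) in Rap, 47899 to 53387 in re-added, 50144 to 52137 in starved and 59097 to 75103 in control libraries. All 15 were detected, with Ucn3 at 0.424 to 1.48 CPM and Slc2a2 at 1.01 to 10.5 CPM the lowest. The libraries did not hold β-cell transcripts alone. The 19 markers of fibroblasts, leukocytes and endothelium summed to 92.6, 89.7 and 85.3 CPM in Rap replicates 1, 2 and 3, to 597, 94.7 and 92.6 CPM in re-added replicates, to 1469.7, 95.2 and 698 CPM in starved replicates, and to 1500.4, 1792 and 1711 CPM in control replicates. None of the 19 was at 0 in a whole group, and 4 lung epithelium markers moved with them, at 34.6 to 41.4 CPM in Rap, 45.9 to 615 CPM in re-added, 70.5 to 1299 CPM in starved and 1322 to 1574 CPM in control libraries. The 3 markers of other islet cells (Gcg, Sst and Ppy) summed to 248 to 267 CPM in Rap, 254 to 274 CPM in re-added, 166 to 180 CPM in starved and 263 to 310.0 CPM in control libraries, lowest in the starved group without overlap. The part of these markers in the results was not tested, and calls are given also with the marker sum as a covariate and, where possible, in libraries of like marker sums. In bulk RNA, fewer cells of a type and less RNA per cell cannot be told apart.

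All 8 members differed among the 4 groups in edgeR's quasi-likelihood F test, with adjusted p from 3.9e-07 for Odc1 to 0.0023 for Oaz1, where 71.9% of all tested genes did. On re-addition of amino acids, Odc1, Amd1, Srm, Sms and Azin1 rose and Sat1 and Oaz2 fell against starved cells, so 5 members were higher and 2 lower, where 18.4% of all tested genes were called higher, 18.8% lower and 37.3% in either direction. Under starvation, Amd1, Srm, Sms, Oaz1, Oaz2 and Azin1 fell and Sat1 rose against control, 6 members lower and 1 higher, where 14.6% of all tested genes were lower, 24.3% higher and 38.9% either. With Rap, Srm alone passed the test against amino acids re-added without it, and was lower, where 3.43% of all genes were lower, 4.55% higher and 7.98% either. The median log2 difference over the members was -0.04 for Rap against re-added, 0.58 for re-added against starved and -0.52 for starved against control, beside 0.00, -0.06 and 0.01 over all tested genes. The split of all calls moved with the scaling: for Rap against re-added 57.0% were higher by edgeR with TMM factors, 45.8% with no filter and 28.4% to 29.0% by limma on TPM, and for starved against control 62.5%, against 44.6% with upper-quartile factors and 70.4% to 73.7% by limma. The comparisons share groups with each other and are not separate evidence.

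**Figure D1:**
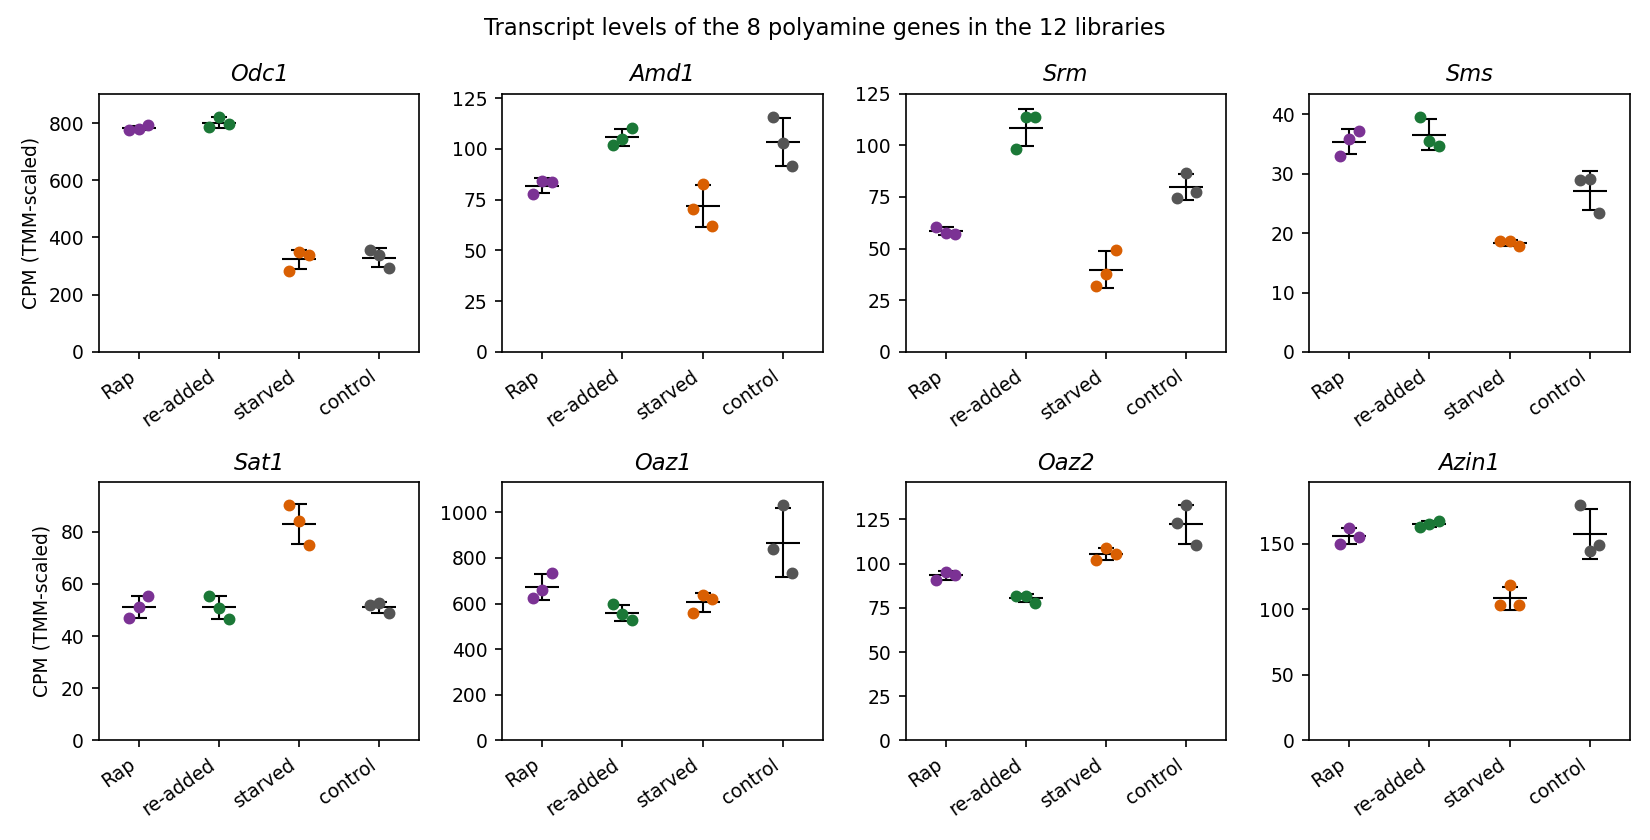
TMM-scaled CPM of each of the 8 genes (y axis, from 0) in the 3 libraries of each group (points), with the group mean and SD (bars). Odc1 averages 782 CPM in Rap and 801 CPM in re-added libraries, and 324 and 329 CPM in starved and control libraries, while Sat1 is highest in the starved libraries at 74.9 to 90.0 CPM.

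Odc1 (ENSMUSG00000011179, chr12:17544873-17551502, plus strand, GRCm38.p6), the first enzyme of the pathway, measured 777, 778 and 792 CPM in Rap libraries, 784, 821 and 797 CPM in re-added libraries, 284, 348 and 339 CPM in starved libraries and 357, 337 and 293 CPM in control libraries. The 6 libraries given amino acids back lay far above the other 6, with no overlap, and within each set of 6 the groups overlapped. Odc1 rose 2.48-fold on re-addition against starvation (log2 1.31 ± 0.09 SE, adjusted p = 1.0e-06). It was called neither for Rap against re-added (log2 -0.03, 95% interval -0.23 to 0.16, adjusted p = 0.86) nor for starved against control (log2 -0.03, 95% interval -0.22 to 0.17, adjusted p = 0.83). Against control it was higher with Rap by log2 1.25 ± 0.09 and on re-addition by 1.28 ± 0.09 (adjusted p = 2.0e-06 and 2.9e-06). With the marker sum as a covariate the differences from control were 1.06 and 1.13.

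Amd1 (ENSMUSG00000075232, chr10:40287458-40302186, minus strand), the other decarboxylase, measured 77.7, 84.0 and 83.9 CPM in Rap libraries, 102, 105 and 110.4 CPM in re-added libraries, 70.3, 82.7 and 62.1 CPM in starved libraries and 116, 103 and 91.7 CPM in control libraries. Re-added and control libraries shared the upper range, and Rap libraries lay with the starved ones. Amd1 fell under starvation against control (log2 -0.53 ± 0.11 SE, adjusted p = 0.0022) and rose on re-addition against starvation (log2 0.56 ± 0.11, adjusted p = 0.0015). Every Rap library lay below every re-added one, at log2 -0.37 (95% interval -0.60 to -0.14), but the test missed the threshold (adjusted p = 0.057). That value passed under 15 of 23 alternatives, DESeq2 included, and without any single control or starved library, with adjusted p from 0.018 to 0.19 when 1 library was left out. In libraries of like marker sums the rise on re-addition was log2 0.44 and no longer passed (adjusted p = 0.052).

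Srm (ENSMUSG00000006442, chr4:148591503-148594993, plus strand) measured 60.5, 57.5 and 57.2 CPM in Rap libraries, 98.0, 114 and 113 CPM in re-added libraries, 32.2, 37.8 and 49.5 CPM in starved libraries and 74.6, 86.7 and 77.5 CPM in control libraries. The 4 groups did not overlap, with re-added highest, then control, then Rap, then starved. Srm was lower with Rap than on re-addition alone by log2 -0.89 ± 0.13 SE (adjusted p = 0.0015), a 1.86-fold difference. It rose 2.72-fold on re-addition against starvation (log2 1.45 ± 0.13, adjusted p = 7.5e-06) and fell under starvation against control (log2 -1.0 ± 0.13, adjusted p = 0.00014). These 3 calls held under all 23 alternatives, and the Rap difference was -0.98 in libraries of like marker sums. The Rap libraries were above the starved ones by log2 0.55 ± 0.13 (adjusted p = 0.0064).

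Sms (ENSMUSG00000071708, chrX:157443855-157492287, minus strand), next in the pathway, measured 33.1, 35.8 and 37.2 CPM in Rap libraries, 39.5, 35.5 and 34.7 CPM in re-added libraries, 18.7, 18.6 and 17.8 CPM in starved libraries and 29.0, 29.1 and 23.3 CPM in control libraries. Rap and re-added libraries overlapped, above control, and the starved libraries were the lowest. Sms rose 1.99-fold on re-addition against starvation (log2 0.99 ± 0.10 SE, adjusted p = 1.4e-05) and fell under starvation against control (log2 -0.56 ± 0.10, adjusted p = 0.00091). The Rap against re-added difference was log2 -0.05 (95% interval -0.26 to 0.16, adjusted p = 0.81). Whether the Srm and Sms responses differ was not tested.

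Sat1 (ENSMUSG00000025283, chrX:155213132-155216449, minus strand), the breakdown enzyme, measured 47.0, 51.3 and 55.2 CPM in Rap libraries, 55.3, 50.8 and 46.7 CPM in re-added libraries, 90.0, 84.0 and 74.9 CPM in starved libraries and 51.7, 52.8 and 48.7 CPM in control libraries. The starved libraries stood above all the others, which overlapped. Sat1 rose 1.62-fold under starvation against control (log2 0.70 ± 0.09 SE, adjusted p = 0.00013) and fell on re-addition against starvation (log2 -0.70 ± 0.09, adjusted p = 9.7e-05). Rap against re-added was at log2 0.01 (95% interval -0.19 to 0.21, adjusted p = 0.97). Both calls held under all 23 alternatives.

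Oaz1 (ENSMUSG00000035242, chr10:80826656-80829290, plus strand), the main antizyme, measured 624, 658 and 736 CPM in Rap libraries, 598, 552 and 529 CPM in re-added libraries, 559.5, 637 and 619.9 CPM in starved libraries and 839, 1029.7 and 734 CPM in control libraries. The control libraries were the highest, with 1 Rap library just above the lowest control library. Oaz1 fell under starvation against control (log2 -0.52 ± 0.12 SE, adjusted p = 0.0039), and on re-addition its change from starvation was log2 -0.11 (95% interval -0.36 to 0.14, adjusted p = 0.45). All 3 Rap libraries lay above the re-added ones, at log2 0.26 (95% interval 0.01 to 0.52), without passing (adjusted p = 0.20).

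Oaz2 (ENSMUSG00000040652, chr9:65668001-65690300, plus strand), the second antizyme, measured 90.8, 95.4 and 93.8 CPM in Rap libraries, 81.5, 82.0 and 77.8 CPM in re-added libraries, 102, 109 and 105 CPM in starved libraries and 123, 133 and 111 CPM in control libraries. The 4 groups did not overlap, with control highest and re-added lowest. Oaz2 fell on re-addition against starvation (log2 -0.39 ± 0.07 SE, adjusted p = 0.0011), a call lost in libraries of like marker sums (log2 -0.39, adjusted p = 0.052). It fell under starvation against control by log2 -0.21 ± 0.07 (adjusted p = 0.032), a call lost under 11 of 23 alternatives. Among these were the marker sum as a covariate (log2 -0.23, adjusted p = 0.077), libraries of like marker sums (log2 -0.24), limma on TPM and only the 6 libraries compared. The others were leaving out control replicate 1 or 2, re-added replicate 2, or Rap replicate 1 or 2 (adjusted p 0.0051 to 0.095 over the libraries left out). With Rap it was log2 0.22 (95% interval 0.06 to 0.37) above re-added without passing (adjusted p = 0.093), and it passed without control replicate 2 or 3 (0.032 to 0.26).

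Azin1 (ENSMUSG00000037458, chr15:38487430-38519266, minus strand), the antizyme inhibitor, measured 149.7, 162 and 155 CPM in Rap libraries, 163, 165 and 167 CPM in re-added libraries, 103, 118 and 103 CPM in starved libraries and 179, 144 and 149 CPM in control libraries. The starved libraries were below all the others. Azin1 fell under starvation against control (log2 -0.54 ± 0.09 SE, adjusted p = 0.00057) and rose on re-addition against starvation (log2 0.61 ± 0.09, adjusted p = 0.00022). Rap libraries lay just below re-added ones, at log2 -0.09 (95% interval -0.28 to 0.11, adjusted p = 0.60). Azin1 thus went the opposite way to Oaz2 on re-addition.

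**Figure D2:**
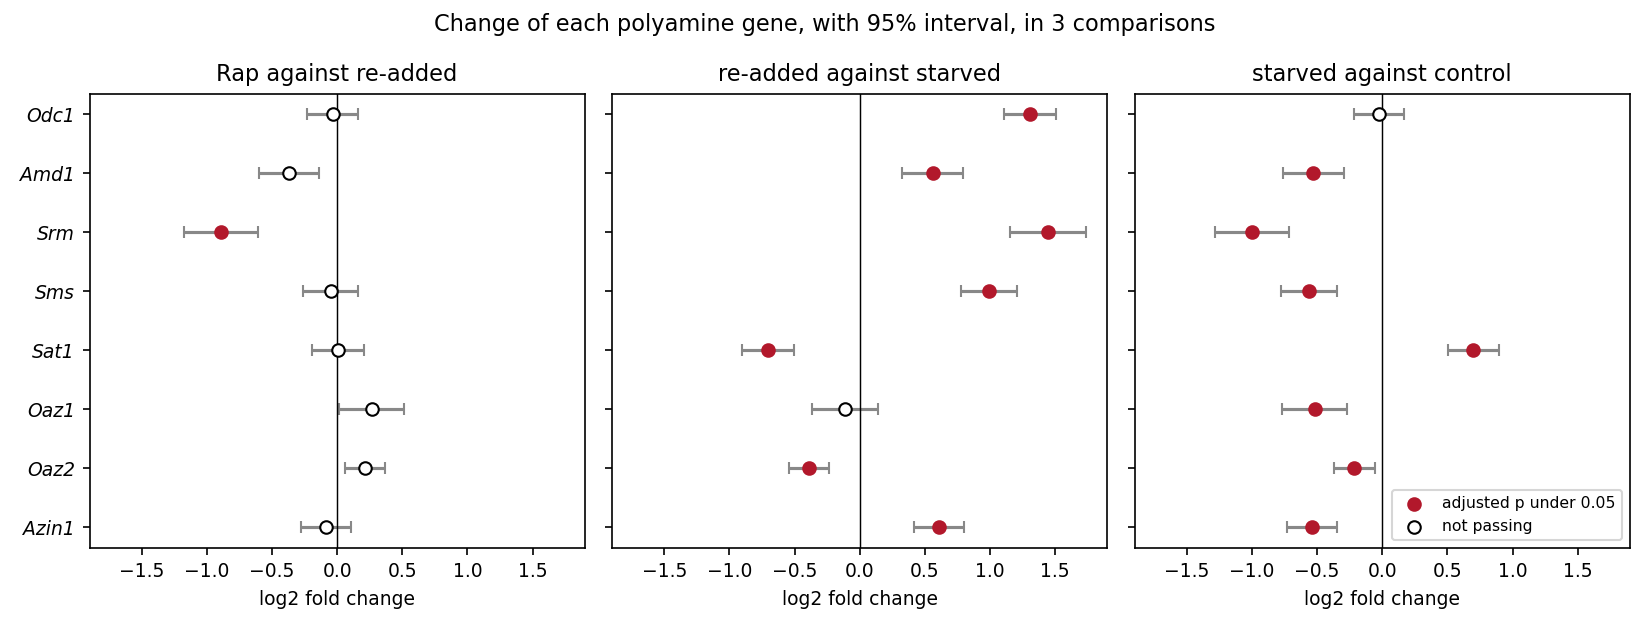
Log2 fold change of each of the 8 genes with its 95% interval in 3 comparisons (x axis), filled where the adjusted p is under 0.05. Srm at -0.89 is the only filled point for Rap against re-added, and Sat1 lies opposite to Srm, Sms, Amd1 and Azin1 in the other comparisons.

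For Rap against re-added, the number of calls depended on the test. The quasi-likelihood test called 0 members higher with Rap, where 2 (Oaz1 and Oaz2) were higher at an unadjusted p under 0.05, DESeq2 called 1 higher and limma on TPM called 0. Members called lower were 1 by the quasi-likelihood test and 2 (Srm and Amd1) by DESeq2 and by limma. Over all genes, 3798 of 16844 had an unadjusted p under 0.05 in the quasi-likelihood test, in either direction. DESeq2 called 1135 of all genes higher and 1171 lower. By limma, depending on the setting, 451 to 565 were higher and 1116 to 1381 lower. Groups did not overlap for 5 members in this comparison, where 38.9% of all tested genes did not overlap. For re-added against starved and for starved against control 7 of 8 members did not overlap, where 50.6% and 50.1% of all tested genes did not.

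Set directly against starved libraries, 4 members were higher with Rap (Odc1 by log2 1.27, Sms by 0.95, Srm by 0.55 and Azin1 by 0.52) and Sat1 was lower (-0.70), where 20.2% of all genes were higher, 23.9% lower and 44.1% either. Groups did not overlap for 6 members, where 53.1% of all genes did not. Amd1 was at 0.19 (95% interval -0.04 to 0.43, adjusted p = 0.16) in this comparison. All 5 calls held in libraries of like marker sums, in which starved replicate 2 stood alone for its group and was assumed to vary like the rest.

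Against control, Rap and re-added libraries both showed Odc1 and Sms higher and Oaz1 and Oaz2 lower. On re-addition 3 members were higher and 2 lower, where 24.8%, 24.5% and, in either direction, 49.3% of all genes were. With Rap 2 were higher and 4 lower, where 27.7%, 25.3% and 53.0% were. Groups did not overlap for 5 members in each, where 61.0% of all genes did not with Rap and 59.5% on re-addition. Srm was higher than control on re-addition (log2 0.45 ± 0.13, adjusted p = 0.015) and lower than control with Rap (log2 -0.45 ± 0.13, adjusted p = 0.013). Sms was higher than control by 0.38 with Rap and by 0.43 on re-addition, Oaz1 lower by log2 -0.37 and -0.63, and Oaz2 by -0.39 and -0.60. Amd1 was lower with Rap (log2 -0.34, adjusted p = 0.019). Marker sums are lower in every Rap and every re-added library than in every control library. Group and marker level therefore cannot be told apart in either comparison with control. With the marker sum as a covariate, the Srm call on re-addition was lost at a smaller difference (log2 0.32, adjusted p = 0.26). With Rap the calls of Srm (log2 -0.60), Sms (0.47), Oaz1 (-0.39) and Oaz2 (-0.43) were lost at differences as large as without it or larger (adjusted p 0.057 to 0.21). The Odc1 and Amd1 calls with Rap stayed (Amd1 at log2 -0.60, adjusted p = 0.027), as did those of Odc1, Sms, Oaz1 and Oaz2 on re-addition. The Srm call on re-addition was also lost without control replicate 1 or re-added replicate 2 or 3 (adjusted p 0.0013 to 0.055), the Amd1 call with Rap without control or Rap replicate 1 (0.0049 to 0.083), and the Oaz1 call with Rap without control replicate 2 or Rap replicate 1 or 2 (0.0046 to 0.079).

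**Figure D3:**
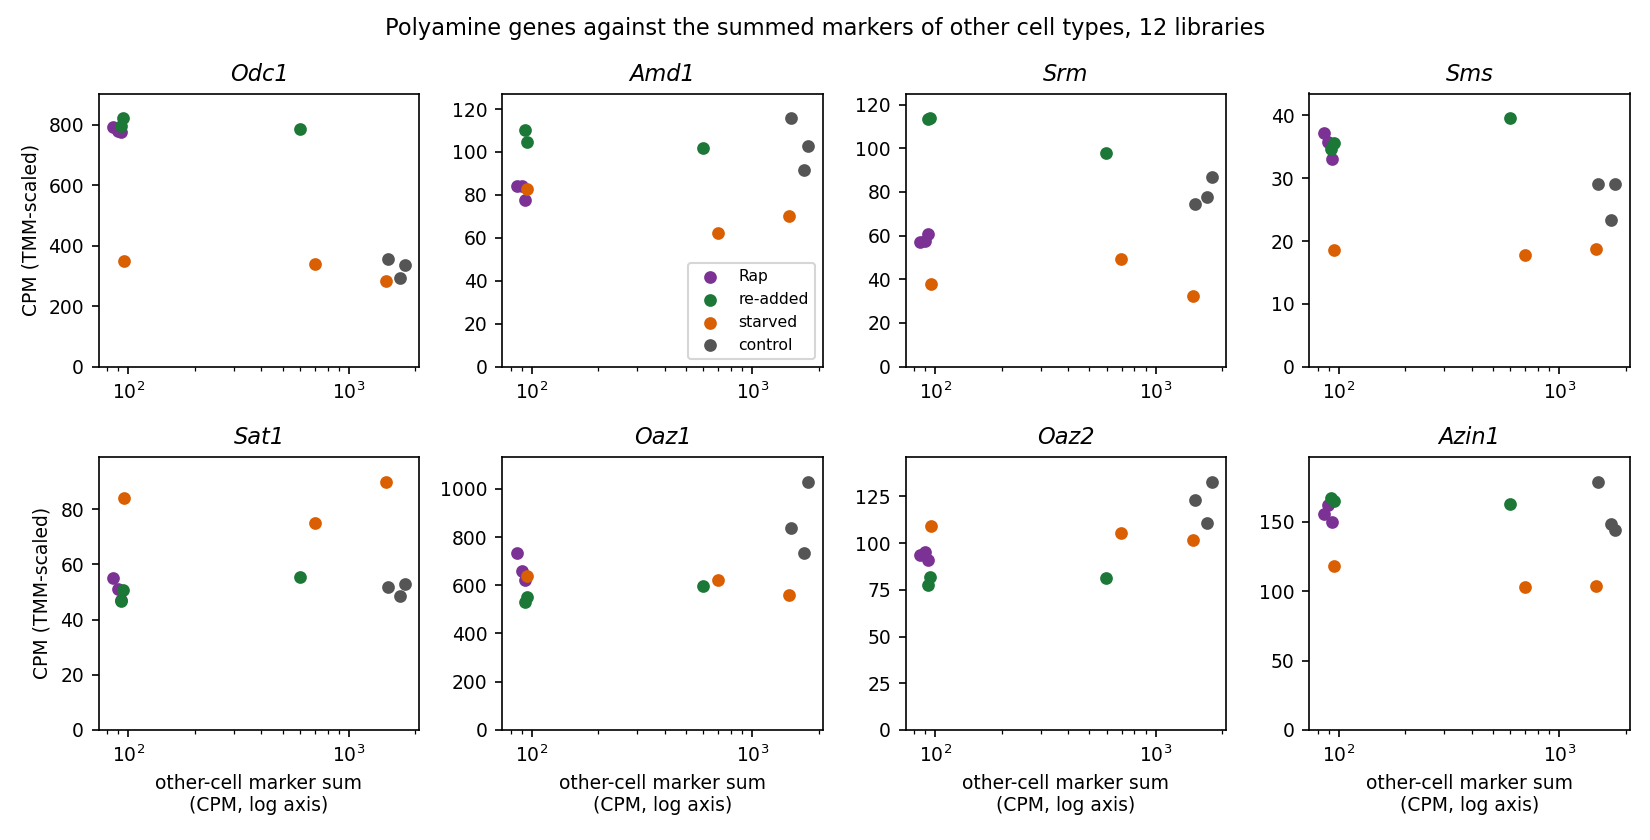
TMM-scaled CPM of each gene (y axis) against the summed CPM of the 19 fibroblast, leukocyte and endothelium markers (x axis, log scale) in the 12 libraries, coloured by group. Starved replicate 2, at a marker sum of 95.2 CPM, keeps the low Odc1 (348 CPM) and Sms (18.6 CPM) levels of the other starved libraries.

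Transcript levels can be set against each other per length, in TPM (reads per exon length, scaled to 1 total per library). Odc1 averaged 814 ± 15.2 TPM in Rap, 896 ± 12.7 TPM in re-added, 367 ± 15.5 TPM in starved and 343 ± 35.2 TPM in control libraries (SD, n = 3 each). Oaz1 averaged 696 ± 38.9 TPM in Rap, 623 ± 39.1 TPM in re-added, 684 ± 8.69 TPM in starved and 895 ± 87.3 TPM in control libraries. Odc1 was thus the most abundant member in Rap and re-added libraries, and Oaz1 was in starved and control libraries. The other 6 members were lower throughout, from 8.39 TPM for Sms in a starved library to 205 TPM for Srm in a re-added one.

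The ratio of Odc1 to both antizymes together was 1.11, 1.06 and 0.974 in Rap libraries, 1.18, 1.32 and 1.34 in re-added libraries, 0.441, 0.478 and 0.479 in starved libraries and 0.379, 0.296 and 0.356 in control libraries. The groups did not overlap, and the ratio was lowest in control. Azin1 to both antizymes averaged 0.0852 ± 0.0062 in Rap, 0.108 ± 0.0076 in re-added, 0.0639 ± 0.0037 in starved and 0.0678 ± 0.014 in control libraries, highest in every re-added library. Amd1 to Odc1 averaged 0.0753 ± 0.0029 in Rap, 0.0949 ± 0.0042 in re-added, 0.16 ± 0.025 in starved and 0.226 ± 0.0071 in control libraries, again without overlap.

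Sms to Srm averaged 0.161 ± 0.014 in Rap, 0.0906 ± 0.015 in re-added, 0.127 ± 0.03 in starved and 0.0909 ± 0.012 in control libraries, with every Rap library above every re-added one. Sat1 to both synthases together averaged 0.435 ± 0.042 in Rap, 0.25 ± 0.039 in re-added, 1.11 ± 0.3 in starved and 0.34 ± 0.02 in control libraries. The starved libraries stood highest, at 1.40, 1.13 and 0.797. Ratios within a library do not depend on scaling between libraries; they are given as levels, without a test.

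**Figure D4:**
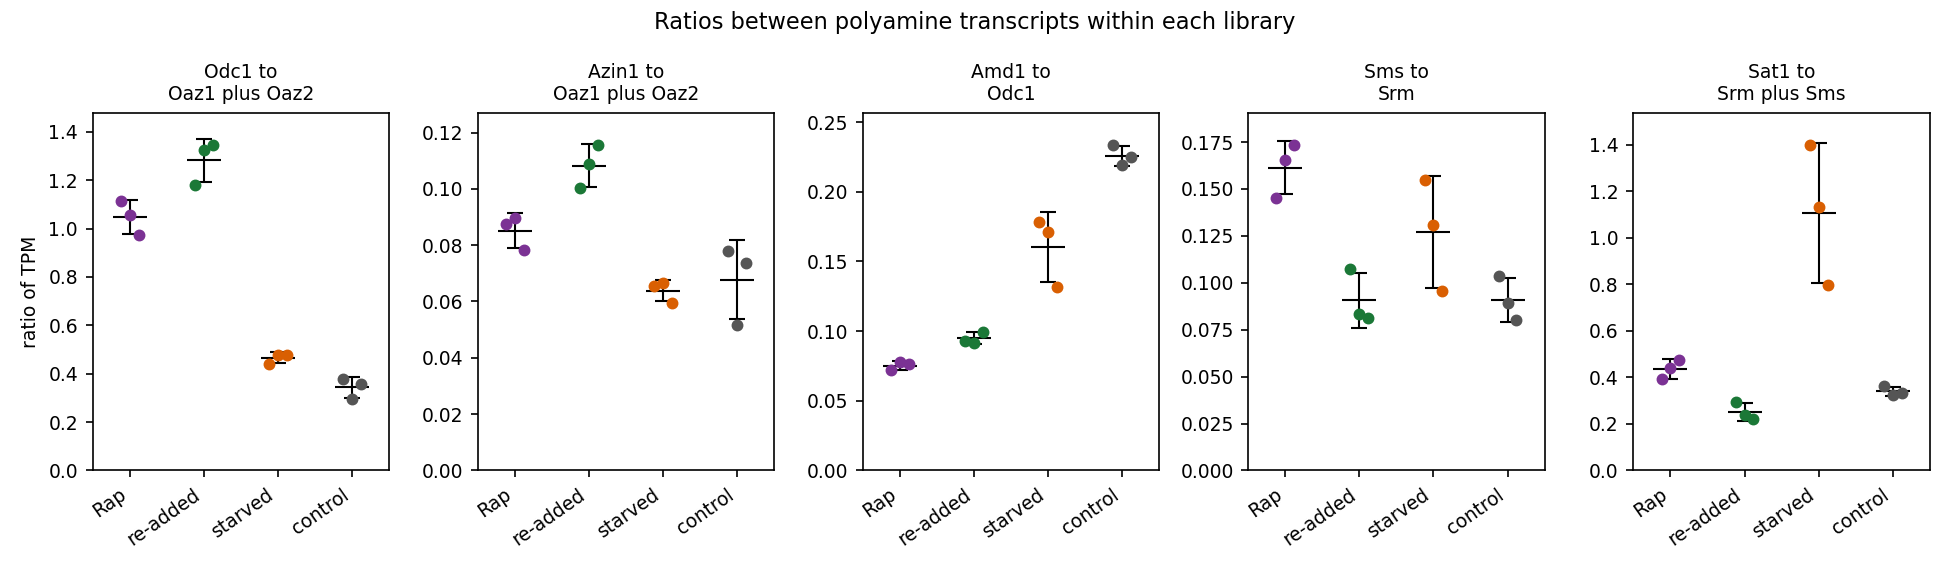
Ratio of TPM values between members (y axis, from 0) in each library (points), with group mean and SD (bars). Odc1 to the antizymes lies at 0.974 to 1.34 in Rap and re-added libraries and at 0.296 to 0.479 in starved and control libraries.

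Near-identical copies could share reads with Sms, Oaz1 and Amd1, and how the authors counted such reads is not given in the sources used here. All 952 words of 150 bases in Sms-ps occur in Sms, as do 72.9% of those of Oaz1-ps in Oaz1 and 61.6% of those of Amd2, 82.5% of Amd-ps3 and 40.4% of Amd-ps4 in Amd1. Counts assigned to the measured copies were at most 1.60% (Amd2), 1.44% (Oaz1-ps) and 1.44% (Sms-ps) of the member's own count in any library. These shares depend on how shared reads were counted, so they do not bound the reads that members gained or lost.

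Genes whose profile over the 12 libraries was most like each member's were found among 11109 named genes averaging at least 5 CPM, by Pearson's r of log2 CPM; the points share their 4 groups, so r largely follows the group means. Odc1 was matched most closely by Pspc1 (r = 0.997), Srsf7 (0.991) and Zcchc12 (0.989), the first a paraspeckle protein and the second a splicing factor. Pspc1 averaged 142 CPM in Rap, 144 in re-added, 46.9 in starved and 52.1 in control libraries. Amd1 was nearest to Faap24, Idi1 and Lap3 (0.951 to 0.944), and Srm to Atg3, Nefm and Ctps (0.973 to 0.970). Ctps, which makes CTP, averaged 59.5 CPM in Rap, 81.6 in re-added, 46.3 in starved and 69.5 in control libraries. Sms was nearest to Zswim7, Mrps10 and Bcat2 (0.987 to 0.973), and Sat1 to Klf10, Cdk20 and Ints6l (0.958 to 0.954). Klf10, a transcriptional repressor, averaged 43.8 CPM in Rap, 42.1 in re-added, 94.0 in starved and 41.1 in control libraries. Oaz1 was nearest to Fkbp8, Anapc11 and Serf2 (0.984 to 0.979), Oaz2 to Nmral1, Flot1 and Osgep (0.982 to 0.973), and Azin1 to Ergic2, Hnrnpc and Cdc42se2 (0.976 to 0.965).

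Other genes of the pathway are given by list, beside the share of all tested genes called in the same comparison. For Rap against re-added, counts at an unadjusted p, by DESeq2 or by limma stand beside the all-gene counts given above for the members. Of 9 tested genes of arginine and ornithine supply, 2 were higher and 3 lower in starved than in control libraries, where 24.3% of all genes were higher and 14.6% lower. On re-addition 2 were higher and 3 lower, where 18.4% and 18.8% of all genes were. Slc7a1, the cationic amino acid transporter that carries arginine, rose to 155 CPM in starved libraries, against 56.1 CPM in control (log2 1.46, adjusted p = 9.2e-06), and fell to 85.2 CPM on re-addition (log2 -0.86 against starved, adjusted p = 0.00028). Asl, which releases arginine in the last step of its synthesis, fell to 33.4 CPM in starved libraries, against 51.1 CPM in control, and was at 50.5 CPM on re-addition (log2 -0.61 and 0.60, adjusted p = 0.00018 for both). For Rap against re-added 0 of the 9 passed by edgeR, DESeq2 or limma, with 1 lower at an unadjusted p under 0.05. The list medians were log2 -0.15 for Rap against re-added, -0.04 for re-added against starved and -0.19 for starved against control. In libraries of like marker sums starved replicate 1 stood alone for its group. Fewer genes of the list, and fewer of all tested genes, were then called lower in starved than in control. Slc7a1 was at log2 1.29 and Asl at -0.60 there.

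Of 11 tested genes of S-adenosylmethionine and methylthioadenosine salvage, 5 were higher and 3 lower on re-addition, where 18.4% and 18.8% of all genes were, and 2 were higher and 5 lower in starved than in control libraries, where 24.3% and 14.6% were. Mat2a, which makes S-adenosylmethionine, rose to 444 CPM in starved libraries, against 184 CPM in control (log2 1.27, adjusted p = 1.7e-06). Mri1 belongs to the route that salvages the methylthioadenosine left over by Srm and Sms. Its transcript rose 2.81-fold on re-addition, to 59.1 CPM against 21.02 CPM in starved libraries (adjusted p = 2.4e-06), and stood at 61.2 CPM with Rap. Adi1, a later enzyme of the same salvage route, fell to 110.3 CPM on re-addition, against 222 CPM in starved libraries (log2 -1.01, adjusted p = 1.4e-05). Ahcy, which clears S-adenosylhomocysteine, was lower in starved libraries at 134 CPM, against 189.7 CPM in control (log2 -0.50, adjusted p = 0.00017), and was at 135 CPM on re-addition. With Rap, Mat2b, the regulatory subunit beside Mat2a, was higher at 56.5 CPM, against 39.3 CPM re-added (log2 0.52, adjusted p = 0.0013), the only gene of the 11 to pass in edgeR. At an unadjusted p under 0.05, 3 were lower, and DESeq2 and limma called 3 and 2 lower. On re-addition, 3 genes rather than 5 were higher in libraries of like marker sums. The list medians were log2 -0.12, 0.01 and -0.12 for Rap against re-added, re-added against starved and starved against control.

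Of the 4 genes of hypusine formation and its target, 2 (Eif5a and Dhps) were higher on re-addition than under starvation and 2 were lower in starved than in control libraries, where 18.4% and 14.6% of all tested genes were. Eif5a fell to 400 ± 13.1 CPM in starved libraries, against 742 ± 90.2 CPM in control (SD, n = 3 each; log2 -0.89, adjusted p = 1.9e-05), and rose to 568 CPM on re-addition (log2 0.51 against starved, adjusted p = 0.00081). Dhps, the enzyme that moves the spermidine residue onto eIF5A, fell to 29.6 CPM in starved libraries, against 43.8 CPM in control, and rose to 50.6 CPM on re-addition (log2 -0.57 and 0.77, adjusted p = 0.0011 and 0.00012). For Rap against re-added 0 of the 4 passed by edgeR, with 1 lower at an unadjusted p under 0.05 and 1 lower by DESeq2 and by limma; Eif5a stood at 483 CPM with Rap. The list medians were log2 -0.06, 0.25 and -0.38 in the same order.

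Of 5 tested transport genes, 3 were higher in starved than in control libraries, where 24.3% of all genes were, and 2 were lower on re-addition, where 18.8% were. Slc3a2, the heavy chain of amino acid transporters also linked to polyamine export, measured 207 ± 6.66 CPM in Rap, 284 ± 2.48 CPM in re-added, 391 ± 27.2 CPM in starved and 237 ± 14.1 CPM in control libraries (SD, n = 3 each). It was lower with Rap than without (log2 -0.46, adjusted p = 0.0021), lower on re-addition than under starvation (-0.46) and higher in starved than in control libraries (0.72). Atp13a3, a polyamine importer, averaged 125 CPM in Rap, 125 in re-added, 203 in starved and 144 in control libraries, lower on re-addition than in starved (log2 -0.70, adjusted p = 0.00097) and higher in starved than in control (log2 0.50, adjusted p = 0.0081). The Atp13a3 call against control was lost in libraries of like marker sums at log2 0.38 (adjusted p = 0.17) and kept with the marker sum as a covariate (log2 0.37, adjusted p = 0.035). In that setting starved replicate 1 stood alone for its group. Fewer of the 5 genes, and fewer of all tested genes, were then called higher in starved than in control. Slc3a2 was at log2 0.62 there. The list medians were log2 -0.01, -0.39 and 0.43 in the same order.

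Of 6 further breakdown genes and paralogs, 1 was higher and 1 lower on re-addition, where 18.4% and 18.8% of all genes were. Sat2, a paralog of Sat1, measured 10.2 CPM re-added, against 4.89 CPM in starved libraries (log2 1.06, adjusted p = 0.00031). Paox, the oxidase that acts on acetylated polyamines, measured 8.10 CPM re-added, against 10.97 CPM in starved libraries (log2 -0.44, adjusted p = 0.01), a call lost in libraries of like marker sums at log2 -0.37 (adjusted p = 0.16) and kept with the marker sum as a covariate (log2 -0.49, adjusted p = 0.0048). Against control, 0 of the 6 passed in starved libraries by edgeR or limma, with 1 lower at an unadjusted p under 0.05 and 1 lower by DESeq2. Over all 16844 genes, 8097 had an unadjusted p under 0.05 by edgeR in either direction, and DESeq2 called 3068 lower. For Rap against re-added 0 passed by edgeR or limma, with 2 higher at an unadjusted p under 0.05 and 1 higher by DESeq2. The list medians were log2 -0.00, 0.08 and -0.08 in the same order.

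**Figure D5:**
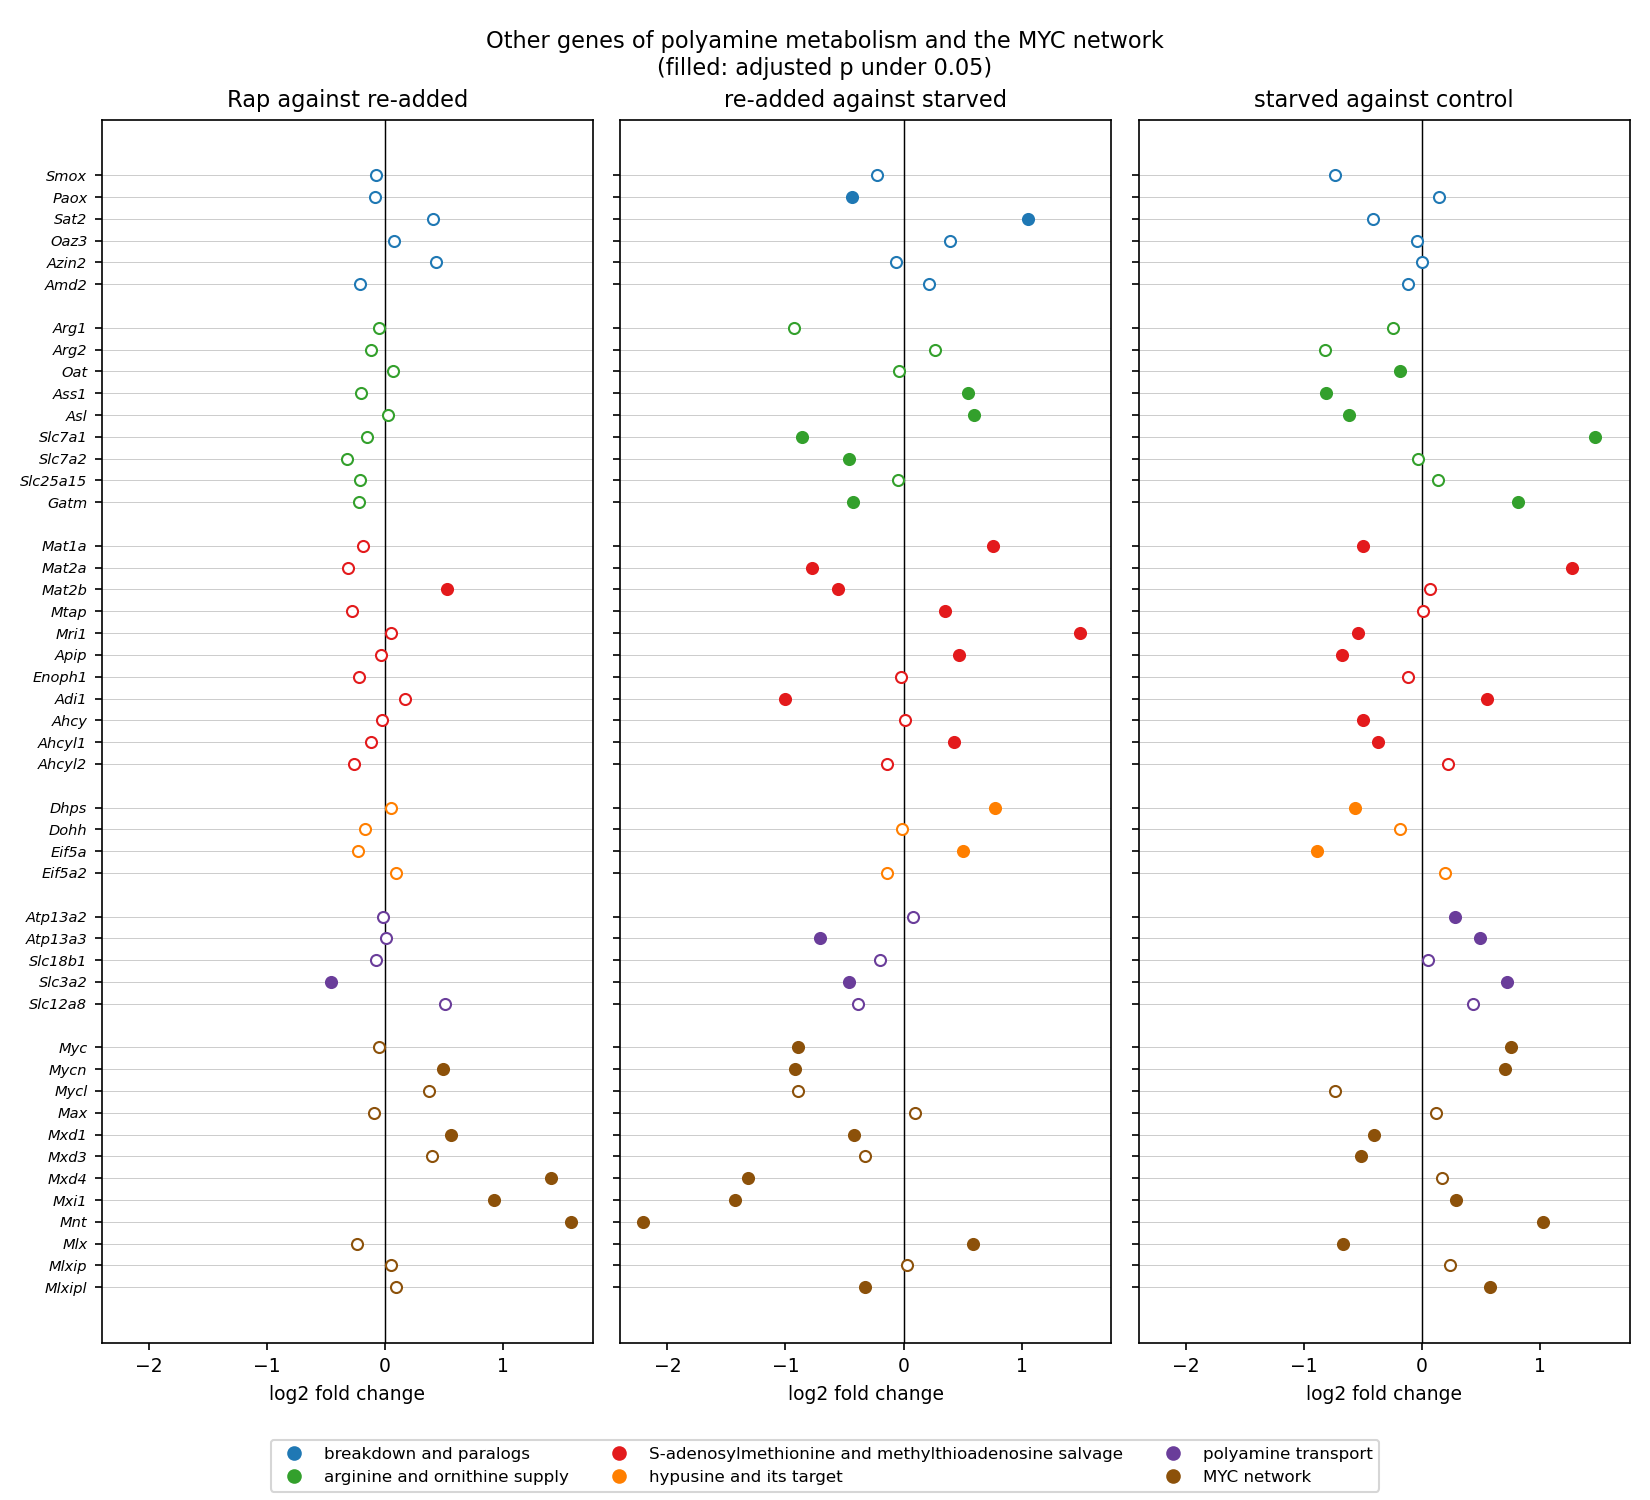
Log2 fold change of the other genes of polyamine metabolism and of the MYC network in 3 comparisons (x axis, shared scale), coloured by list and filled where the adjusted p is under 0.05. Mnt, Mxd4 and Mxi1 lie at -2.21, -1.32 and -1.43 for re-added against starved, and at 1.57, 1.41 and 0.92 for Rap against re-added.

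The MYC network was listed because MYC proteins, paired with MAX at E-boxes, are textbook activators of Odc1, while MNT, MXD and MXI1 proteins compete for MAX. Of its 12 genes, 5 were higher and 0 lower with Rap than without, where 4.55% and 3.43% of all genes were. On re-addition 1 was higher and 7 lower, where 18.4% and 18.8% were, and in starved against control 5 were higher and 3 lower, where 24.3% and 14.6% were. For Rap against re-added, 1 gene was lower at an unadjusted p under 0.05, and DESeq2 and limma called 1 lower and 6 and 4 higher. Over all genes they called 1135 and 451 to 565 higher. Without re-added replicate 2, Rap replicate 1 or Rap replicate 2, 3 genes rather than 5 were higher with Rap. Over all genes 404, 425 and 412 rather than 766 were. In libraries of like marker sums starved replicate 1 stood alone for its group. Fewer genes of the list, and fewer of all tested genes, were then called higher in starved than in control. Mnt was at log2 0.89 and Mlx at -0.73 there. Mnt, a repressor, measured 47.8, 49.3 and 48.6 CPM in Rap libraries, 16.5, 16.6 and 15.9 CPM in re-added libraries, 67.9, 81.2 and 77.8 CPM in starved libraries and 32.9, 36.3 and 42.4 CPM in control libraries. The 4 groups did not overlap, which the rule that named Mnt required in the 3 main comparisons. Mnt was 2.97-fold higher with Rap than without (log2 1.57, adjusted p = 3.9e-06), lower on re-addition than under starvation (log2 -2.21, adjusted p = 5.0e-08), and higher in starved than in control libraries (log2 1.02, adjusted p = 1.3e-05).

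Mxd4, another repressor, averaged 95.02 CPM in Rap, against 35.8 CPM in re-added libraries (log2 1.41, adjusted p = 5.8e-06), with 89.3 CPM in starved and 79.4 CPM in control libraries. Mxi1 averaged 32.5 CPM in Rap, 17.2 in re-added, 46.3 in starved and 37.9 in control libraries, and its fall on re-addition against starvation was log2 -1.43 (adjusted p = 2.8e-07). Mlx, a partner within the network, fell in starved libraries to 62.4 CPM, against 98.8 CPM in control (log2 -0.66, adjusted p = 9.8e-05). Myc itself, named after its values were seen, averaged 4.79 CPM in Rap, 4.97 in re-added, 9.24 in starved and 5.50 in control libraries. It was highest in starved libraries (starved against control log2 0.75, adjusted p = 0.0069, and re-added against starved log2 -0.89, adjusted p = 0.0026). No value adjusted for the marker sum is given for Myc. Its relatives Mycn and Mycl were also tested and not named by the rule. Their highest counts in a library were 382 and 41, beside 226 for Myc. The list medians were log2 0.38 for Rap against re-added, -0.65 for re-added against starved and 0.20 for starved against control.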

How the data were processed

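The authors deposited a read count per gene for each of the 12 libraries and a TPM table. Libraries were made from MIN6 RNA and read as 150-base paired ends, per the labels' protocols. The submitters' processing notes name build GRCm38.p6, Subread 2.0.1 and limma 3.46.0 without a role. Beyond these names, no aligner, strand setting or annotation release is given there or in the labels, so reads of overlapping or antisense genes cannot be told apart. The deposited TPM values equalled counts divided by exon length and rescaled, within 5e-05. All 49315 rows hold a gene ID, 174 of them with no name.

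Counts were tested with edgeR 4.0.16 in R 4.3.3 (quasi-likelihood test, TMM factors, all 12 libraries in 1 fit with 4 group means, 8 residual degrees of freedom). Genes with low counts were removed (minimum count 10, minimum total 15), which left 16844 genes holding 99.9% of counts. P-values were adjusted by Benjamini-Hochberg over those genes, with a threshold of 0.05. Every printed adjusted p comes from edgeR unless DESeq2 or limma is named. Depth was 18555958 to 25631056 counts.

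There were 23 alternatives: RLE and upper-quartile factors, no filter, DESeq2 1.42.0, limma 3.58.1 on log2(TPM + 1) and log2(TPM + 0.1) with a minimum of 1 TPM and without, a replicate block, only the 6 libraries compared, each of the 12 libraries left out, the marker sum as a covariate, and libraries of like marker sums. In the last, a group left with 1 library was assumed to vary like the others. The 8 members were always named. For each other list, the rule named, in each of the 3 main comparisons, the 2 genes with the smallest adjusted p among those passing whose groups did not overlap. It also named the 3 genes most like each member by r of log2(CPM + 0.5). The members and lists were chosen with earlier results of these data known. Replicate numbers were checked for pairing.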

Additional observations from a re-analysis of the deposited data

How the results depend on the processing

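Over the 8 members and 6 comparisons, 1088 alternative values were computed: 984 kept their direction and side of the threshold, 26 lost the call, 28 gained it and 50 changed sign, none of the last in a call. The cause was not tested for any of them. Sign changes, as log2, were as follows. Odc1 in starved against control was 0.098 by each limma setting and -0.11 to 0.040 with 1 library left out. Sat1 in Rap against re-added was -0.0062 with RLE factors, -0.026 with no filter, -0.0058 by DESeq2, -0.094, -0.096 and -0.094 by limma and -0.022 in only the 6 libraries, and -0.051 to 0.065 with 1 library left out. Amd1 in re-added against control was -0.014 (RLE), -0.053 (upper quartile), -0.014 (DESeq2), -0.17 (covariate) and -0.048 to 0.12 (1 library left out). Sat1 in re-added against control was 0.093, 0.094 and 0.093 by limma, 0.089 with the covariate and -0.092 to 0.059 with 1 library left out. Azin1 in re-added against control was -0.012 (upper quartile) and -0.062 (covariate). Sat1 in Rap against control was -0.056 (RLE), -0.086 (upper quartile), -0.040 (no filter), -0.045 (the 6 libraries), -0.056 (DESeq2), -0.0017, -0.0018 and -0.0017 by limma, and -0.050 to 0.066 with 1 library left out, and Azin1 there was -0.075 to 0.089.

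Members called lower with Rap than without numbered 2 rather than 1 under RLE, upper-quartile factors, no filter, DESeq2, limma, the 6 libraries and the covariate (1 to 2 with 1 library left out), and members called higher 1 by DESeq2 and 2 in the 6 libraries rather than 0 (0 to 1). Members lower in Rap than in starved numbered 2 rather than 1 under RLE, DESeq2, limma and the 6 libraries (1 to 2). In Rap against control the covariate left 1 higher and 1 lower (2 to 4 lower with 1 library left out), and in re-added against starved like marker sums left 1 lower. Genes passing in all numbered, for Rap against re-added, 1344, with 2306 by DESeq2, 3959 in the 6 libraries and 635 to 2058 with 1 library left out; for Rap against starved, 7424, with 3338 at like marker sums and 4940 to 8290; for Rap against control, 8927, with 2058 under the covariate; for re-added against control, 8304, with 2869 under the covariate and 5208 to 8838; for re-added against starved, 6275, with 3559 at like marker sums; and for starved against control, 6559, with 4199 in the 6 libraries and 3236 at like marker sums. Of calls in starved against control 62.5% were higher (median of all genes 0.01), with 44.6% under upper-quartile factors (median -0.13) and 72.4% and 73.7% by limma with a TPM minimum (medians 0.13 and 0.15). In Rap against re-added 57.0% were higher (median 0.00), with 29.0% and 28.4% by limma (medians -0.08 and -0.09), and in re-added against control 50.2%, with 60.7% and 61.7% (medians 0.02, 0.12 and 0.14).

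Whether replicate numbers pair the libraries could not be decided. Of 18 same-numbered pairs, 2 had correlated deviations over 0.1 (r -0.33 to 0.81 over the 18). These were starved with re-added replicate 1 (0.81) and starved with re-added replicate 2 (0.67). Within each of these pairs the marker sums also stood on the same side of their groups, so within them pairing and marker level cannot be told apart. Starved replicate 2 and re-added replicate 3, differently numbered and with marker sums of 95.2 and 92.6 CPM, were at r 0.63. Starved replicate 3 was at 0.42 with re-added replicate 1 and at -0.33 with re-added replicate 3. The part of marker level in these values was not tested. The replicate block left the counts of members called as they were in the 6 comparisons, kept 161 of 164 results, and gave 1067 genes passing for Rap against re-added.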
